A study of Mus musculus with 18 samples.

Results

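The comparison described here is high against low shear in wild-type (WT) mouse cells: 3 libraries from cells kept for 48 h under a laminar shear stress of 30 dyn/cm² and 3 libraries from cells kept for the same time at 2 dyn/cm². These are 6 of 18 libraries. The others are cells homozygous for orpk (Tg737orpk/orpk), an insertion in the ciliary transport gene Ift88, at 30 and at 2 dyn/cm², and static cells of each genotype, again 3 libraries a group. The labels call every group endothelial cells of the embryonic aorta. All were grown on gelatin with 2% serum, the cells under flow were starved of serum for 24 h before it, and no source used here says whether the libraries of a group came from separate cultures or animals. Poly(A) RNA was counted per gene, and all 13058 of the 21647 listed genes that had enough reads to test are the subject. Levels are CPM, reads of a gene relative to the library's total scaled by TMM, changes are log2 of 30 over 2 dyn/cm² with their standard error (SE), and a change is said to pass when its edgeR quasi-likelihood p, adjusted over all tested genes by Benjamini-Hochberg, is under 0.05.

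Endothelial cells feel the drag of blood as shear stress through junctional, ciliary, glycocalyx and integrin sensors. In arteries, high laminar shear is known to raise the transcription factors KLF2 and KLF4 and with them nitric oxide synthase, and to lower leukocyte adhesion molecules, while low or disturbed shear favours inflammation. Stretch and drag on the cytoskeleton also reach the nucleus through the coactivators YAP, TAZ and MRTF, which bind TEAD factors and SRF and raise matrix, cytoskeletal and growth factor genes, often together with TGF-beta signalling.

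The markers went in part against the label. Over the 3 libraries of a group, Cdh5, Erg, Tie1, Sox17 and Sox18, which define endothelium, had 0 reads at 30 and 0 at 2 dyn/cm², 5 of the 18 endothelial markers, and Kdr had 0 and 1. Pecam1, a junctional protein of endothelium, had 31 reads at 30 and 38 at 2 dyn/cm², and Vwf 7 and 5. Flt1, a VEGF receptor, was present with 869 reads at 30 and 825 at 2 dyn/cm², and Egfl7, a secreted endothelial protein, with 488 and 529. The summed level of the 18 markers was 303 to 313 CPM at 30 and 208 to 218 CPM at 2 dyn/cm², most of it Mcam with 14821 and 9864 reads. Genes of the nephron lineage were present, with Pax8 at 7906 reads and Cdh16 at 24951 reads at 30 dyn/cm², against 11764 and 29663 at 2 dyn/cm². The cells are therefore called WT cells below. Ift88, intact in these cells, had 12.8, 13.3 and 13.9 CPM at 30 dyn/cm², against 13.9, 15.5 and 14.2 CPM at 2 dyn/cm², and the groups overlapped (-0.12 ± 0.09, edgeR adjusted p = 0.311). Library totals of the 6 ran from 14807633 to 16452878 counts. At 2 dyn/cm² replicate 1 stood apart: the chi-square per degree of freedom of its counts was 6.21 and 7.59 against replicates 2 and 3, 1.43 between those, and 1.20 to 1.40 among the libraries at 30 dyn/cm². Its deviation followed exon length, the bases covered by all annotated exons of a gene. The median log2 difference of replicate 1 from the mean of the other 2 was 0.13 in the shortest of 5 equal groups of genes (median 2000 bases). It was -0.11 in the longest (median 10307 bases). Many results that rest on that library are given with and without it. Some list counts are given with it only and can differ without it, such as 11 against 9 lysosome genes lower.

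High shear moved many genes a little and few genes far. Of 13058 genes 4316 passed (33.1%), 2071 higher (15.9%) and 2245 lower (17.2%). The median size of a passing change was 0.25 on the log2 scale, and 78.4% of them were under 0.5. Only 314 genes (2.40%) passed with a change over 1, 133 higher and 181 lower. Without replicate 1 at 2 dyn/cm² 4339 passed, 2117 higher and 2222 lower, and 3681 of the 4316 (85.3%) passed again in the same direction. The split by exon length moved with that library. In the shortest 1 of 5 groups of genes 270 were higher and 434 lower with it, against 373 and 311 without, and in the longest group 474 and 361 with it, against 393 and 519 without.

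**Figure D1:**
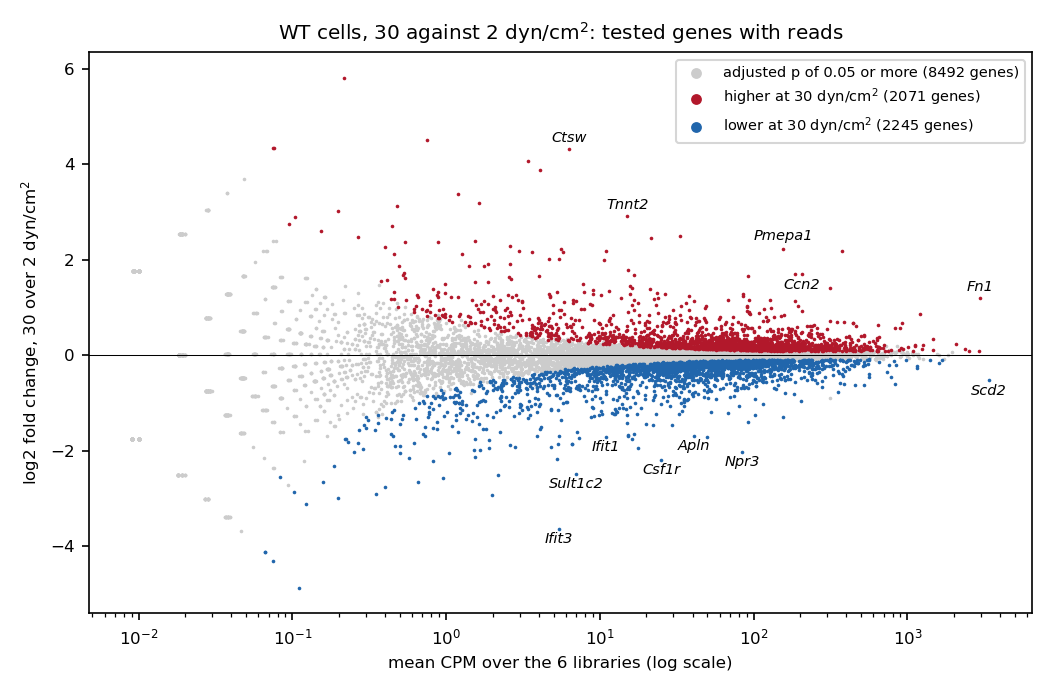
Change (log2, 30 over 2 dyn/cm²) against mean level over the 6 WT libraries (CPM, log axis) for each tested gene with reads in them, red where higher at 30 dyn/cm², blue where lower and grey where the change did not pass. The 2071 red and 2245 blue points lie mostly within 0.5 of 0, and the named genes, such as Ctsw, Tnnt2 and Ifit3, stand outside that band.

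Interferon-stimulated genes, the antiviral set that type I interferon switches on, were lower at high shear. Of 48 tested members 36 were lower and 1 was higher, with a median log2 change of -0.85, beside 17.2% lower and a median of 0 over all tested genes. Mx1 had 0 reads at 30 dyn/cm², and with its change set to the bound that 3 reads in that group would give the median was -0.77. Without replicate 1 at 2 dyn/cm² the list had 37 lower and 1 higher, median -0.89.

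Genes were ranked by size of change where they averaged 5 CPM or more and the groups did not overlap. Of these the steepest fall was that of Ifit3 (ENSMUSG00000074896; GRCm38 chromosome 19, 34583531 to 34588731, plus strand), whose protein belongs to a family that binds viral RNA and partners. Ifit3 had 0.839, 0.6103 and 0.937 CPM at 30 dyn/cm², against 11.9, 8.65 and 9.44 CPM at 2 dyn/cm². Every library at 30 dyn/cm² was below every library at 2 dyn/cm², 12.5-fold by the fitted change (-3.64 ± 0.19, edgeR adjusted p = 3.2e-19). Ifit1, which binds foreign 5′ RNA ends, had 4.73, 4.66 and 6.01 CPM at 30 dyn/cm², against 18.1, 15.2 and 17.1 CPM at 2 dyn/cm², again with no overlap (-1.71 ± 0.17, edgeR adjusted p = 1.39e-07). For Ifit3b, a close copy of Ifit3 whose reads may be hard to assign, the libraries held 0.719, 0.444 and 0.221 CPM at 30 dyn/cm², against 3.04, 3.66 and 3.85 CPM at 2 dyn/cm² (-2.93 ± 0.30, edgeR adjusted p = 2.17e-10). The ubiquitin-like modifier gene Isg15 had 10.8, 12.8 and 11.5 CPM at 30 dyn/cm², against 27.9, 25.1 and 23.2 CPM at 2 dyn/cm² (-1.12 ± 0.13, edgeR adjusted p = 2.83e-06). Rsad2, an enzyme that makes a chain-terminating nucleotide, had 2.22, 2.05 and 1.54 CPM at 30 dyn/cm², against 4.56, 4.51 and 5.43 CPM at 2 dyn/cm² (-1.32 ± 0.18, edgeR adjusted p = 1.41e-07). These genes, too, were lower in each library at 30 dyn/cm² than in any at 2 dyn/cm². Of all 13058 tested genes, 5598 had groups that did not overlap, more than the 4316 that passed. A lack of overlap by itself was thus common.

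The fall reached transcription factors of the pathway unevenly. Irf7, the factor that amplifies interferon genes, had 8.63, 9.21 and 9.76 CPM at 30 dyn/cm², against 21.1, 17.2 and 17.8 CPM at 2 dyn/cm² and fell without overlap (-1.02 ± 0.12, edgeR adjusted p = 8.51e-08). Stat2 and Irf9, which carry the signal from the receptor to the genes, did not pass, with changes of -0.13 ± 0.05 and -0.10 ± 0.08 (edgeR adjusted p = 0.0715 and 0.378). Ifitm3, which blocks virus entry, and Ifit2, another of the RNA-binding family, fell by 0.40 and 0.79 on the log2 scale (edgeR adjusted p = 6.84e-07 and 1.44e-15). The member that rose was Irgm1, an immunity GTPase, with 67.4, 65.5 and 67.3 CPM at 30 dyn/cm², against 55.96, 56.1 and 59.3 CPM at 2 dyn/cm² (0.22 ± 0.05, edgeR adjusted p = 0.00031). Macrophage and leukocyte markers summed over 12 genes to 18.7 to 21.1 CPM at 30 and 51.6 to 55.1 CPM at 2 dyn/cm². Of 7 tested, 1 was lower (14.3%, beside 17.2% lower over all genes), Csf1r, with 472 and 2193 reads, and 0 were higher. Cd14 had 300 reads at 30 and 371 at 2 dyn/cm², and Cd68 171 and 155, and neither passed. Adgre1 and Tyrobp had 0 reads in either group and Ptprc had 4 and 7. In bulk RNA fewer cells of a type and less RNA per cell cannot be told apart, and the part of such cells in the fall was not tested.

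**Figure D2:**
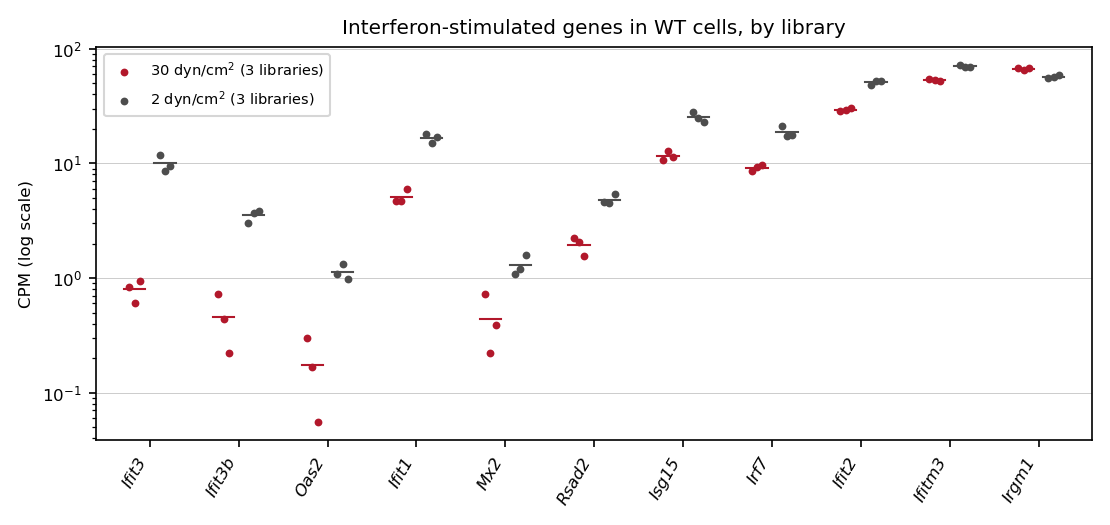
Level (CPM, log axis) of 11 interferon-stimulated genes in each WT library, the 3 libraries at 30 dyn/cm² (red) left of the 3 at 2 dyn/cm² (grey), lines marking the group means. Ifit3 lies between 0.610 and 0.937 CPM at 30 against 8.65 to 11.9 CPM at 2 dyn/cm², and Irgm1 is the gene that is higher at 30 dyn/cm².

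Interferon acts through a transcription factor complex, of which STAT2 and IRF9 are members, that binds the interferon-stimulated response element. The promoters of 4 of the genes that fell are shown with the core of that element in capitals, searched as GAAANNGAAA on either strand, where N is any base, in RefSeq windows of GRCm38.p6 from 250 bases before to 50 after the start. Each line reads 5′ to 3′ along the gene, at chr19:34583279-34583578, plus strand for Ifit3, chr19:34607707-34608006, plus strand for Ifit3b, chr19:34640639-34640938, plus strand for Ifit1 and chr4:156200769-156201068, minus strand for Isg15.
Ifit3: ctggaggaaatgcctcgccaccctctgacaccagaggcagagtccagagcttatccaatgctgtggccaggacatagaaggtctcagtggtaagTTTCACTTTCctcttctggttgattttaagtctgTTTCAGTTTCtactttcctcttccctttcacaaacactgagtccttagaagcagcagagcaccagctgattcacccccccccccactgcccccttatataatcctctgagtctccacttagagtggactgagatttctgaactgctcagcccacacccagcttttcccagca
Ifit3b: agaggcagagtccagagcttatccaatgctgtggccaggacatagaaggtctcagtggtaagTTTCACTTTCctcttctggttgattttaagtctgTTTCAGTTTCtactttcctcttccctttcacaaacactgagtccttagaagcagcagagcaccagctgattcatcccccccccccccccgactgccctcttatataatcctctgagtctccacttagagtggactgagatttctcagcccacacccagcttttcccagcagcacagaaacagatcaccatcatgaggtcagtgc
Ifit1: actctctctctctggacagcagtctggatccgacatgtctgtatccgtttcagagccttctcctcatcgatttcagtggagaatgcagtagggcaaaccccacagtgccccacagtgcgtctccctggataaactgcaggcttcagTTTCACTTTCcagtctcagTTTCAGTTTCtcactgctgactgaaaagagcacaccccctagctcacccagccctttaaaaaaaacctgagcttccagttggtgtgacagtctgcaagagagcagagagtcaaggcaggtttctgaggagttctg
Isg15: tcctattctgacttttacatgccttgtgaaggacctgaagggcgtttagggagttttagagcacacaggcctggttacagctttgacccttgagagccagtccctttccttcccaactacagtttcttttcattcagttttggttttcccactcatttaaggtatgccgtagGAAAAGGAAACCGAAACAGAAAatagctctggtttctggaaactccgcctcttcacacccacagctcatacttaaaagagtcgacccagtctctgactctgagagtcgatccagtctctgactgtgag
The Ifit promoters each hold 2 matches, both on the strand opposite to the gene, and Isg15 holds 3 overlapping ones. Among the list's 36 members with a RefSeq promoter, 20 (55.6%) hold a match, against 3.99% of all 27025 genes with one. Among the 26 genes with a promoter that fell 15 hold one, among the 9 that did not pass 4 do, and Irgm1, which rose, does as well.

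Genes of antigen presentation moved less. Of 17 tested 6 were lower and 0 higher, median -0.20, and the 35.3% that passed lay near the 33.1% of all genes. H2-K1, a class I heavy chain with close relatives in the genome, had 150.2, 152 and 149.8 CPM at 30 dyn/cm², against 205, 188 and 201 CPM at 2 dyn/cm² and fell by 0.39 on the log2 scale (edgeR adjusted p = 1.01e-08). Tap1, the peptide transporter, and Cd74, the class II invariant chain, fell by 0.49 and 0.64 (edgeR adjusted p = 0.000138 and 0.000947). In the list of leukocyte adhesion, chemokine and NF-kB genes 9 of 24 were lower and 4 higher, together 54.2%, median -0.02. Without replicate 1 at 2 dyn/cm² 8 were lower and 5 higher. The neutrophil attractant Cxcl1 had 6.71, 6.38 and 5.46 CPM at 30 dyn/cm², against 12.9, 14.5 and 16.01 CPM at 2 dyn/cm², without overlap (-1.23 ± 0.13, edgeR adjusted p = 5.97e-09). Its relative Cxcl2 and the T cell attractant Ccl5 fell by 1.26 and 1.14 (edgeR adjusted p = 5.73e-05 and 1.13e-05). Vcam1, which captures leukocytes on inflamed endothelium, had 1.02, 1.66 and 1.43 CPM at 30 dyn/cm², against 2.93, 3.004 and 3.31 CPM at 2 dyn/cm². These groups did not overlap, and the fall passed (-1.15 ± 0.30, edgeR adjusted p = 0.00474), but without replicate 1 at 2 dyn/cm² it was -1.19 and did not (edgeR adjusted p = 0.0596). In the other direction, the membrane-bound chemokine Cx3cl1 had 31.6, 33.8 and 33.9 CPM at 30 dyn/cm², against 20.2, 21.7 and 20.1 CPM at 2 dyn/cm² (0.68 ± 0.07, edgeR adjusted p = 7.21e-11). Tnfaip3, which encodes the NF-kB inhibitor A20, also rose, with 38.7, 33.6 and 36.2 CPM at 30 dyn/cm², against 22.5, 24.2 and 25.1 CPM at 2 dyn/cm² (0.59 ± 0.06, edgeR adjusted p = 9.84e-11). Ccl2, the monocyte attractant, did not pass (0.21 ± 0.10, edgeR adjusted p = 0.101), though it did without replicate 1 at 2 dyn/cm² (0.33, edgeR adjusted p = 0.021).

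The laminar shear genes best known from endothelium did not move in a common direction: 5 of 25 were higher and 6 lower, median -0.07. Together 44% passed, beside 33.1% of all genes. Klf2 had 7.73, 6.16 and 6.23 CPM at 30 dyn/cm², against 8.48, 6.61 and 6.73 CPM at 2 dyn/cm², and Klf4 19.1, 18.6 and 18.3 CPM at 30 dyn/cm², against 16.7, 15.5 and 16.8 CPM at 2 dyn/cm². The groups of Klf2 overlapped and those of Klf4 did not, and neither gene passed (-0.13 ± 0.14 and 0.19 ± 0.09, edgeR adjusted p = 0.536 and 0.0911). Nos3, endothelial nitric oxide synthase, had 1.38, 1.89 and 2.04 CPM at 30 dyn/cm², against 1.63, 1.08 and 1.03 CPM at 2 dyn/cm², with overlap (0.50 ± 0.24, edgeR adjusted p = 0.107). Without replicate 1 at 2 dyn/cm² it passed (0.75, edgeR adjusted p = 0.0337). Edn1, the precursor of the vasoconstrictor endothelin, did not pass (0.27 ± 0.15, edgeR adjusted p = 0.178). Klf6 and Klf10, relatives of Klf4, did rise. Klf6 had 213, 212 and 206 CPM at 30 dyn/cm², against 142, 147 and 146 CPM at 2 dyn/cm² (0.54 ± 0.04, edgeR adjusted p = 1.61e-15), and Klf10, a gene induced by TGF-beta, 101, 102 and 107 CPM at 30 dyn/cm², against 73.1, 68.9 and 71.1 CPM at 2 dyn/cm² (0.54 ± 0.05, edgeR adjusted p = 6.82e-13). Aqp1, a water channel of endothelium and renal tubule, was lower, with 141, 136 and 138 CPM at 30 dyn/cm², against 269.9, 261 and 272 CPM at 2 dyn/cm² (-0.95 ± 0.11, edgeR adjusted p = 1.77e-05). Ptgds, a prostaglandin D synthase, fell by 0.96 on the log2 scale (edgeR adjusted p = 6.69e-09).

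Among genes of vasoactive peptides and their receptors 5 of 16 were lower and 2 higher, median -0.19. Together 43.8% passed, beside 33.1% of all genes. Of the 16, 5 had 3 or fewer reads in both groups, and without these the median was -0.28. The falls were large. Npr3, the clearance receptor for natriuretic peptides, had 33.3, 33.1 and 32.6 CPM at 30 dyn/cm², against 128, 135 and 142 CPM at 2 dyn/cm², a 4.09-fold fall by the fitted change without overlap (-2.03 ± 0.06, edgeR adjusted p = 7.95e-24). Apln, the precursor of the vasodilator apelin, had 20.4, 19.03 and 18.9 CPM at 30 dyn/cm², against 64.3, 63.3 and 60.9 CPM at 2 dyn/cm² (-1.69 ± 0.06, edgeR adjusted p = 2.72e-24). For Agt, the precursor of angiotensin, the libraries held 4.13, 2.996 and 2.92 CPM at 30 dyn/cm², against 11.3, 11.8 and 10.5 CPM at 2 dyn/cm² (-1.74 ± 0.13, edgeR adjusted p = 2.19e-14). Ramp3, which pairs with the receptor for adrenomedullin, had 11.7, 9.38 and 11.2 CPM at 30 dyn/cm², against 34.2, 26.01 and 27.7 CPM at 2 dyn/cm² (-1.45 ± 0.12, edgeR adjusted p = 2.5e-10). In each of these the libraries at 30 dyn/cm² all lay below those at 2 dyn/cm². The bradykinin receptor Bdkrb2 was among those that rose, with a change of 0.39 ± 0.10 (edgeR adjusted p = 0.00169).

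Immediate early genes, transcribed within minutes of a stimulus, were higher after 48 h. Of 19 tested 11 were higher and 0 lower, median 0.35 (11 and 1 without replicate 1 at 2 dyn/cm²). Together 57.9% passed, beside 33.1% of all genes. Junb, a subunit of AP-1, had 117, 122 and 123 CPM at 30 dyn/cm², against 63.7, 60.4 and 55.8 CPM at 2 dyn/cm², and Ier5, a regulator of the heat shock response, 157, 145 and 158 CPM at 30 dyn/cm², against 88.3, 75.1 and 71.4 CPM at 2 dyn/cm². In both, every library at 30 dyn/cm² was above every one at 2 dyn/cm² (1.01 ± 0.05 and 0.97 ± 0.05, edgeR adjusted p = 6.92e-21 and 7.71e-20). Egr2 and Fosb, other factors of the set, rose by 0.75 and 0.53 on the log2 scale (edgeR adjusted p = 0.000295 and 0.00537), and Fosl1 by 0.42 (edgeR adjusted p = 1e-06). The members most often measured did not: Fos had a change of -0.06 ± 0.13, Jun of 0.02 ± 0.05 and Egr1 of -0.11 ± 0.05 (edgeR adjusted p = 0.787, 0.763 and 0.0719). Egr1 was lower without replicate 1 at 2 dyn/cm² (-0.16, edgeR adjusted p = 0.0126).

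Of 15 feedback genes of the ERK pathway, which its kinase switches on to damp it, 8 rose and 0 fell, median 0.22 (7 and 1 without replicate 1 at 2 dyn/cm²). The 8 were 53.3%, beside 33.1% of all genes that passed. The ETS factor Etv4 had 40.4, 38.6 and 38.1 CPM at 30 dyn/cm², against 23.2, 22.3 and 22.4 CPM at 2 dyn/cm², and Etv5 10.4, 8.82 and 11.9 CPM at 30 dyn/cm², against 5.38, 5.71 and 4.94 CPM at 2 dyn/cm². Neither overlapped (0.78 ± 0.06 and 0.96 ± 0.11, edgeR adjusted p = 6.79e-14 and 5.25e-09). Dusp4, a phosphatase that inactivates ERK, rose by 0.75 on the log2 scale (edgeR adjusted p = 2.92e-08). Fosl1, Ier3 and Egr1, which did not pass, stand in both this list and that of immediate early genes.

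Of 22 targets of MRTF and SRF, which couple actin assembly to transcription, 12 rose and 1 fell, median 0.15. Together 59.1% passed, beside 33.1% of all genes. Tagln, an actin-bundling protein of contractile cells, had 123, 120.1 and 109.6 CPM at 30 dyn/cm², against 65.7, 58.4 and 61.3 CPM at 2 dyn/cm² (0.93 ± 0.07, edgeR adjusted p = 9.29e-10). Csrp2, a LIM protein of the same cells, had 53.99, 51.7 and 53.3 CPM at 30 dyn/cm², against 35.2, 27.5 and 29.95 CPM at 2 dyn/cm² (0.77 ± 0.06, edgeR adjusted p = 1.63e-13). Myh9, the heavy chain of non-muscle myosin, had 1068, 1082 and 1072 CPM at 30 dyn/cm², against 675, 735 and 762 CPM at 2 dyn/cm² (0.57 ± 0.04, edgeR adjusted p = 5.49e-17). All 3 genes were higher in each library at 30 dyn/cm². Cnn1, calponin, went the other way, with 0.959, 0.832 and 0.992 CPM at 30 dyn/cm², against 3.26, 2.46 and 2.44 CPM at 2 dyn/cm² (-1.55 ± 0.22, edgeR adjusted p = 3.66e-07). Acta2, smooth muscle actin, had 0.719, 0.888 and 0.662 CPM at 30 dyn/cm², against 0.435, 0.841 and 0.814 CPM at 2 dyn/cm², under 1 CPM in each library and overlapping (0.13 ± 0.37, edgeR adjusted p = 0.842).

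SRF binds the CArG box, shown in capitals in the promoters of 3 members of the list that rose and hold it, from the same RefSeq windows, at chr14:20929148-20929447, plus strand for Vcl, chr10:79988350-79988649, plus strand for Cnn2 and chr1:43196712-43197011, minus strand for Fhl2.
Vcl: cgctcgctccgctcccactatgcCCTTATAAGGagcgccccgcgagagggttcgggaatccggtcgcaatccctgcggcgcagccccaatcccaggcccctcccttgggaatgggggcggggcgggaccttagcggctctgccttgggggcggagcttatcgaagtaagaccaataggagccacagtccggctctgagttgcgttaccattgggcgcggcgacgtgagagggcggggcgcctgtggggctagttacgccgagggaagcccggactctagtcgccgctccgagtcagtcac
Cnn2: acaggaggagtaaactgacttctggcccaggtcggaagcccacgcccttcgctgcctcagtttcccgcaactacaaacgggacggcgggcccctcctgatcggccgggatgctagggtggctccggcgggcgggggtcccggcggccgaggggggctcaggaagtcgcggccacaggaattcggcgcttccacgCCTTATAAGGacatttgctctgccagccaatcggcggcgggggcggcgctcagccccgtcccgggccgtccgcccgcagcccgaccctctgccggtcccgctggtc
Fhl2: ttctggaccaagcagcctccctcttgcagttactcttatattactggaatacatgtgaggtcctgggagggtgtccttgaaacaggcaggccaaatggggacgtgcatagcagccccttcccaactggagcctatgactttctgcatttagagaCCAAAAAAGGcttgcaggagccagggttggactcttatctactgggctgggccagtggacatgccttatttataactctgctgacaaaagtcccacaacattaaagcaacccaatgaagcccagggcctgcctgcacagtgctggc
Vcl encodes vinculin, which ties adhesions to actin, Cnn2 a calponin of non-muscle cells and Fhl2 a LIM coactivator. Their changes were 0.18 ± 0.04, 0.21 ± 0.04 and 0.33 ± 0.06 (edgeR adjusted p = 0.000484, 0.000263 and 1.89e-05). Among the list's 18 members with a RefSeq promoter, 8 (44.4%) hold the box, against 1.81% of all genes with a promoter. It stood in 3 of 9 that rose, in 5 of 8 that did not pass and in 0 of 1 that fell, so the match did not set apart the genes that rose.

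Contractile genes split. Of 20 actomyosin and smooth muscle genes 7 were higher and 3 lower, together 50% beside 33.1% of all genes (median 0.13). Acta2, Tagln, Cnn1, Myl9, Tpm1 and Tpm2 stand in this list and in that of MRTF and SRF targets, so the counts are not separate. Of 15 tested sarcomere genes 4 were higher and 1 lower (median 0.38). The sarcomere genes that passed were 33.3% of those tested, near the 33.1% of all genes. Tnnt2, the troponin that holds the cardiac regulatory complex on the thin filament, had 26.6, 28.9 and 24.5 CPM at 30 dyn/cm², against 3.803, 3.604 and 3.15 CPM at 2 dyn/cm², 7.56-fold higher by the fitted change (2.92 ± 0.11, edgeR adjusted p = 2.88e-24). Tnni1, the slow skeletal inhibitory troponin, had 3.12, 3.55 and 3.47 CPM at 30 dyn/cm², against 1.68, 1.802 and 2.17 CPM at 2 dyn/cm² (0.84 ± 0.20, edgeR adjusted p = 0.00115). Both were higher in every library. Smooth muscle and pericyte markers summed to 454 to 475 CPM at 30 and 431 to 465 CPM at 2 dyn/cm² over 10 genes, nearly all of it Smtn, and Myh11 had 4 reads at 30 and 3 at 2 dyn/cm². Mylk, the kinase that activates smooth muscle myosin, had 27.6, 24.3 and 24.3 CPM at 30 dyn/cm², against 42.2, 53.04 and 51.01 CPM at 2 dyn/cm² and fell without overlap (-0.94 ± 0.07, edgeR adjusted p = 6.68e-12).

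Targets of YAP and TAZ changed in both directions, 12 of 29 higher and 9 lower, median 0.08 (10 and 10 without replicate 1 at 2 dyn/cm²). In all 72.4% passed, beside 33.1% of all genes. Ccn2 (ENSMUSG00000019997), a matricellular protein also called CTGF, had 324, 313 and 312 CPM at 30 dyn/cm², against 95.8, 96.4 and 97.9 CPM at 2 dyn/cm², 3.27-fold higher by the fitted change and without overlap (1.71 ± 0.08, edgeR adjusted p = 9.14e-11). Ccn1, its relative CYR61, had 278, 268 and 266 CPM at 30 dyn/cm², against 179, 175 and 175 CPM at 2 dyn/cm² (0.62 ± 0.04, edgeR adjusted p = 1.69e-16), and Ankrd1, a nuclear ankyrin repeat protein, 221, 216 and 211 CPM at 30 dyn/cm², against 160.4, 154 and 155 CPM at 2 dyn/cm² (0.46 ± 0.04, edgeR adjusted p = 3.15e-13). Fstl3, a secreted inhibitor of activin, had 8.87, 8.101 and 9.26 CPM at 30 dyn/cm², against 1.902, 2.22 and 2.33 CPM at 2 dyn/cm² (2.02 ± 0.15, edgeR adjusted p = 5.51e-15). Among the members that fell, Rbms3, Ptpn14 and the coagulation initiator F3 fell by 0.82, 0.46 and 0.55 on the log2 scale (edgeR adjusted p = 3.82e-09, 1.88e-07 and 3.55e-09).

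Genes of the TGF-beta and BMP pathways changed in both directions. Of 30 TGF-beta and BMP genes 13 were higher and 9 lower, together 73.3% beside 33.1% of all genes, median 0.18. Pmepa1, a membrane protein that restrains SMAD signalling, had 250.2, 259.9 and 261 CPM at 30 dyn/cm², against 55.04, 53.3 and 56.9 CPM at 2 dyn/cm², 4.66-fold higher by the fitted change (2.22 ± 0.06, edgeR adjusted p = 2.92e-22). Skil, a SMAD corepressor, had 125, 132 and 128 CPM at 30 dyn/cm², against 58.5, 58.4 and 55.1 CPM at 2 dyn/cm² (1.16 ± 0.09, edgeR adjusted p = 2.11e-07). The inhibitory Smad7 had 39.9, 34.6 and 33.6 CPM at 30 dyn/cm², against 21.9, 19.7 and 19.8 CPM at 2 dyn/cm² (0.81 ± 0.07, edgeR adjusted p = 7.8e-13). In all 3, which TGF-beta itself is known to induce, the libraries at 30 dyn/cm² lay above those at 2 dyn/cm².

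Ligands and receptors of the pathway moved in mixed directions. Ltbp1, which holds latent TGF-beta in the matrix, had 52.4, 56.04 and 51.4 CPM at 30 dyn/cm², against 21.8, 22.6 and 22.8 CPM at 2 dyn/cm² (1.25 ± 0.09, edgeR adjusted p = 2.33e-09). The ligand Tgfb1 and the receptor Tgfbr1 rose by 0.38 and 0.26 on the log2 scale (edgeR adjusted p = 2.9e-07 and 0.000137), while the receptor Tgfbr2 and the signal carrier Smad3 fell by 0.58 and 0.56 (edgeR adjusted p = 7.01e-18 and 5.67e-14). The coreceptor Tgfbr3 had 23.6, 19.5 and 19.96 CPM at 30 dyn/cm², against 45.2, 48.8 and 47.7 CPM at 2 dyn/cm² and fell without overlap (-1.17 ± 0.06, edgeR adjusted p = 2.2e-19). Bmp4 and Bmp6, ligands of the BMP branch, fell by 0.61 and 1.06 (edgeR adjusted p = 5.92e-09 and 1.16e-16). Id2, which BMP signals can induce, fell by 0.84 (edgeR adjusted p = 8.11e-08).

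Of 25 collagen chains 9 rose and 5 fell, together 56% beside 33.1% of all genes, median 0.11. Without replicate 1 at 2 dyn/cm² 7 rose and 5 fell. Within collagen IV, the net of basement membranes, the chains split by pair. Col4a3 had 8.99, 9.65 and 8.82 CPM at 30 dyn/cm², against 1.85, 1.98 and 2.01 CPM at 2 dyn/cm², and Col4a4 16.3, 17.03 and 17.7 CPM at 30 dyn/cm², against 3.97, 3.96 and 4.88 CPM at 2 dyn/cm². These chains of the mature kidney and lung membrane rose without overlap (2.23 ± 0.14 and 1.99 ± 0.10, edgeR adjusted p = 1.69e-16 and 1.95e-19). Col4a1 had 1.68, 1.44 and 1.599 CPM at 30 dyn/cm², against 2.23, 2.58 and 2.496 CPM at 2 dyn/cm², and Col4a2 4.55, 3.88 and 3.09 CPM at 30 dyn/cm², against 5.705, 6.25 and 5.86 CPM at 2 dyn/cm². These chains, found in nearly every basement membrane, fell, also without overlap (-0.63 ± 0.15 and -0.63 ± 0.12, edgeR adjusted p = 0.0074 and 3.28e-05), as did Col4a5 and Col4a6, by 0.44 and 0.51 (edgeR adjusted p = 6.71e-13 and 1.96e-10).

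Among the other collagens, Col7a1, which anchors epithelium to stroma, had 274, 291 and 288 CPM at 30 dyn/cm², against 82.9, 90.3 and 91.4 CPM at 2 dyn/cm² (1.69 ± 0.06, edgeR adjusted p = 7.1e-15). Col12a1, which sits on the surface of fibrils, had 139.7, 139.9 and 138 CPM at 30 dyn/cm², against 34.6, 47.8 and 50.1 CPM at 2 dyn/cm² (1.66 ± 0.12, edgeR adjusted p = 1.22e-07), and 1.51 without the lower replicate 1. The fibril chain Col1a1 had 1124, 1123 and 1135 CPM at 30 dyn/cm², against 696, 699 and 720.4 CPM at 2 dyn/cm² (0.68 ± 0.05, edgeR adjusted p = 1.2e-11). Its partner Col1a2 had 22.4, 18.3 and 12.9 CPM at 30 dyn/cm², against 11.95, 13.5 and 11.6 CPM at 2 dyn/cm². Those groups overlapped, and the call (0.53 ± 0.18, edgeR adjusted p = 0.0412) was lost when any library but replicate 3 at 30 dyn/cm² was left out, with changes of 0.34 to 0.60 for Col1a2 then.

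Of 37 matrix glycoprotein genes 10 rose and 2 fell, together 32.4%, near the 33.1% of all genes. Of the 37, 4 had 3 or fewer reads in both groups. Without replicate 1 at 2 dyn/cm² 10 rose and 5 fell, and that library was a median of 0.12 on the log2 scale below the mean of the other 2 over these genes. Fn1, fibronectin, had 4082, 4216 and 4126 CPM at 30 dyn/cm², against 1470.1, 1947 and 1976 CPM at 2 dyn/cm². Replicate 1 was the lowest of all, and the rise was 1.20 ± 0.09 with it and 1.08 without it (edgeR adjusted p = 2.52e-07 and 1.02e-10). Postn, periostin, had 4.97, 4.94 and 4.74 CPM at 30 dyn/cm², against 1.25, 1.14 and 0.814 CPM at 2 dyn/cm² (2.19 ± 0.21, edgeR adjusted p = 1.26e-09), and the microfibril protein Mfap4 7.67, 7.38 and 7.39 CPM at 30 dyn/cm², against 1.63, 2.103 and 1.79 CPM at 2 dyn/cm² (2.02 ± 0.14, edgeR adjusted p = 2.86e-15). Both rose without overlap. Lamb2 and Nid2, of basement membranes, fell by 0.50 and 0.36 (edgeR adjusted p = 5.78e-11 and 0.00613). The summed level of 11 fibroblast markers, most of it Col1a1, was 1189 to 1194 CPM at 30 and 744 to 766 CPM at 2 dyn/cm², while Thy1, Fap and Lum had 2, 0 and 0 reads at 30 and 2, 1 and 2 at 2 dyn/cm². The part of such cells in these rises was not tested.

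**Figure D3:**
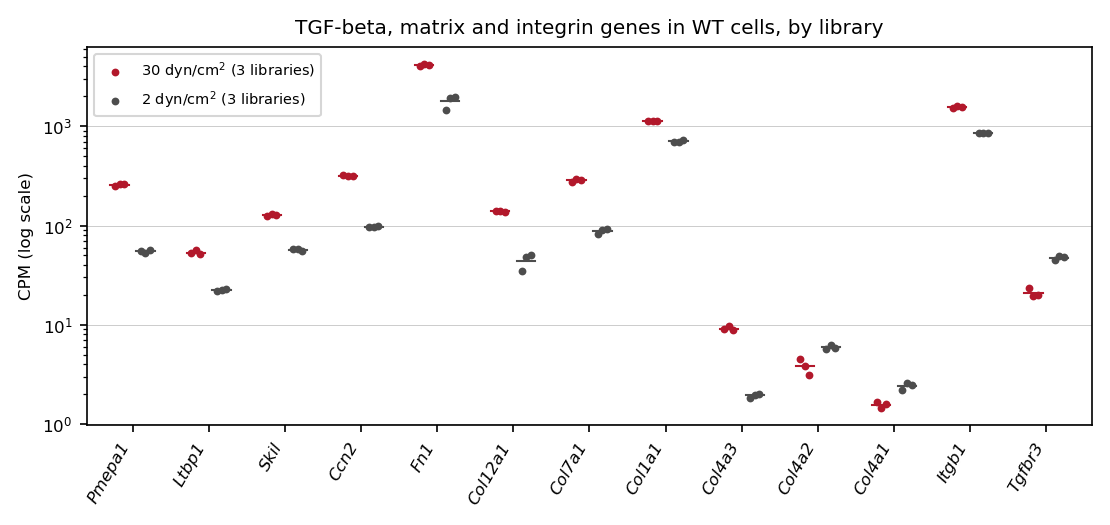
Level (CPM, log axis) of 13 TGF-beta, matrix and integrin genes in each WT library, the 3 libraries at 30 dyn/cm² (red) left of the 3 at 2 dyn/cm² (grey), lines marking the group means. Pmepa1 and Col4a3 lie over 4-fold higher at 30 dyn/cm², Col4a1, Col4a2 and Tgfbr3 lie lower, and for Fn1 and Col12a1 replicate 1 at 2 dyn/cm² is the lowest point.

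Proteases and their inhibitors followed: 7 of 23 higher and 4 lower, together 47.8% beside 33.1% of all genes. Of the 23, 5 had 3 or fewer reads in both groups. Adam8, a sheddase, had 29.5, 30.8 and 31.1 CPM at 30 dyn/cm², against 10.8, 11.5 and 12.7 CPM at 2 dyn/cm² (1.38 ± 0.08, edgeR adjusted p = 1.06e-18). Mmp14, the membrane collagenase, had 201, 199 and 201 CPM at 30 dyn/cm², against 138, 137 and 130.1 CPM at 2 dyn/cm² (0.57 ± 0.04, edgeR adjusted p = 7.89e-16), and Timp1, which inhibits metalloproteases, 44.3, 45.4 and 47.4 CPM at 30 dyn/cm², against 31.1, 25.9 and 28.2 CPM at 2 dyn/cm² (0.68 ± 0.06, edgeR adjusted p = 2.97e-12). These rose without overlap, and Adamts1, which cleaves proteoglycans, fell, with 264, 259 and 257 CPM at 30 dyn/cm², against 421, 458 and 449 CPM at 2 dyn/cm² (-0.77 ± 0.06, edgeR adjusted p = 9.15e-10).

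Integrins and focal adhesion genes were called in 12 of 29 as higher and in 11 as lower, median 0.09. Together 79.3% passed, beside 33.1% of all genes. Itgb1, the common beta chain, had 1530.3, 1584 and 1546 CPM at 30 dyn/cm², against 862, 850.2 and 864 CPM at 2 dyn/cm² (0.86 ± 0.03, edgeR adjusted p = 4.2e-25). Itgb3 and Itgav, which pair to bind fibronectin and vitronectin, rose by 0.98 and 0.45 on the log2 scale (edgeR adjusted p = 2e-06 and 1.28e-13). Itgb6 and Itgb8, the chains that pair with the alpha V chain to release active TGF-beta, fell by 0.98 and 0.93 (edgeR adjusted p = 1.57e-07 and 1e-13). Itgb8 had 15.8, 14.7 and 15.1 CPM at 30 dyn/cm², against 26.5, 31.3 and 29.3 CPM at 2 dyn/cm², with no overlap.

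Of 26 cell junction genes 10 were higher and 2 lower, together 46.2% beside 33.1% of all genes. The connexin Gja1, a gap junction channel of vessels and heart, had 13.4, 15.1 and 14.5 CPM at 30 dyn/cm², against 6.47, 5.47 and 5.97 CPM at 2 dyn/cm² (1.26 ± 0.10, edgeR adjusted p = 1.03e-13). Jup, plakoglobin of desmosomes and adherens junctions, had 353, 354 and 362 CPM at 30 dyn/cm², against 239, 244 and 247 CPM at 2 dyn/cm² (0.55 ± 0.03, edgeR adjusted p = 1.17e-16). Both rose in every library. Cldn4, a sealing claudin of epithelium, had 6.41, 5.604 and 5.79 CPM at 30 dyn/cm², against 1.304, 1.02 and 1.63 CPM at 2 dyn/cm² (2.15 ± 0.18, edgeR adjusted p = 9.66e-13). Cldn2, which stands outside that list and forms a cation pore in the proximal tubule, had 8.27, 6.99 and 6.51 CPM at 30 dyn/cm², against 27.4, 30.3 and 25.9 CPM at 2 dyn/cm² (-1.94 ± 0.09, edgeR adjusted p = 1.32e-19).

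Markers of epithelium and mesothelium changed in both directions: of 11 tested 4 were higher, Epcam, Krt8, Krt18 and Cldn4, and 2 lower, Msln and Upk3b. Together 54.5% passed, beside 33.1% of all genes. The summed level of 12 such markers was 440 to 465 CPM at 30 and 359 to 383 CPM at 2 dyn/cm², with the keratin Krt8 at 193, 205 and 192 CPM at 30 dyn/cm², against 151, 133 and 136 CPM at 2 dyn/cm² (0.49 ± 0.04, edgeR adjusted p = 2.4e-12). Msln, the mesothelial surface protein mesothelin, had 29.9, 27.9 and 27.1 CPM at 30 dyn/cm², against 40.7, 39.9 and 39.7 CPM at 2 dyn/cm² (-0.51 ± 0.06, edgeR adjusted p = 1.34e-09). Wt1 had 0 reads in either group and Cdh1 had 2 at 30 and 11 at 2 dyn/cm². Nephron lineage markers were lower in 5 of 7 tested (71.4%, beside 17.2% lower over all genes). Their summed level was 874 to 915 CPM at 30 and 1070 to 1162 CPM at 2 dyn/cm². Pax8, a transcription factor of the kidney and thyroid lineages, had 155, 145 and 149 CPM at 30 dyn/cm², against 216, 219 and 224 CPM at 2 dyn/cm² (-0.56 ± 0.04, edgeR adjusted p = 1.71e-13). The proximal tubule receptor Lrp2 fell by 0.47 on the log2 scale (edgeR adjusted p = 1.25e-05). Foxa1, a pioneer factor of epithelia, had 3.18, 2.61 and 2.81 CPM at 30 dyn/cm², against 11.5, 9.91 and 9.66 CPM at 2 dyn/cm² (-1.85 ± 0.14, edgeR adjusted p = 2.41e-14). The part of such lineages in the other results was not tested.

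**Figure D4:**
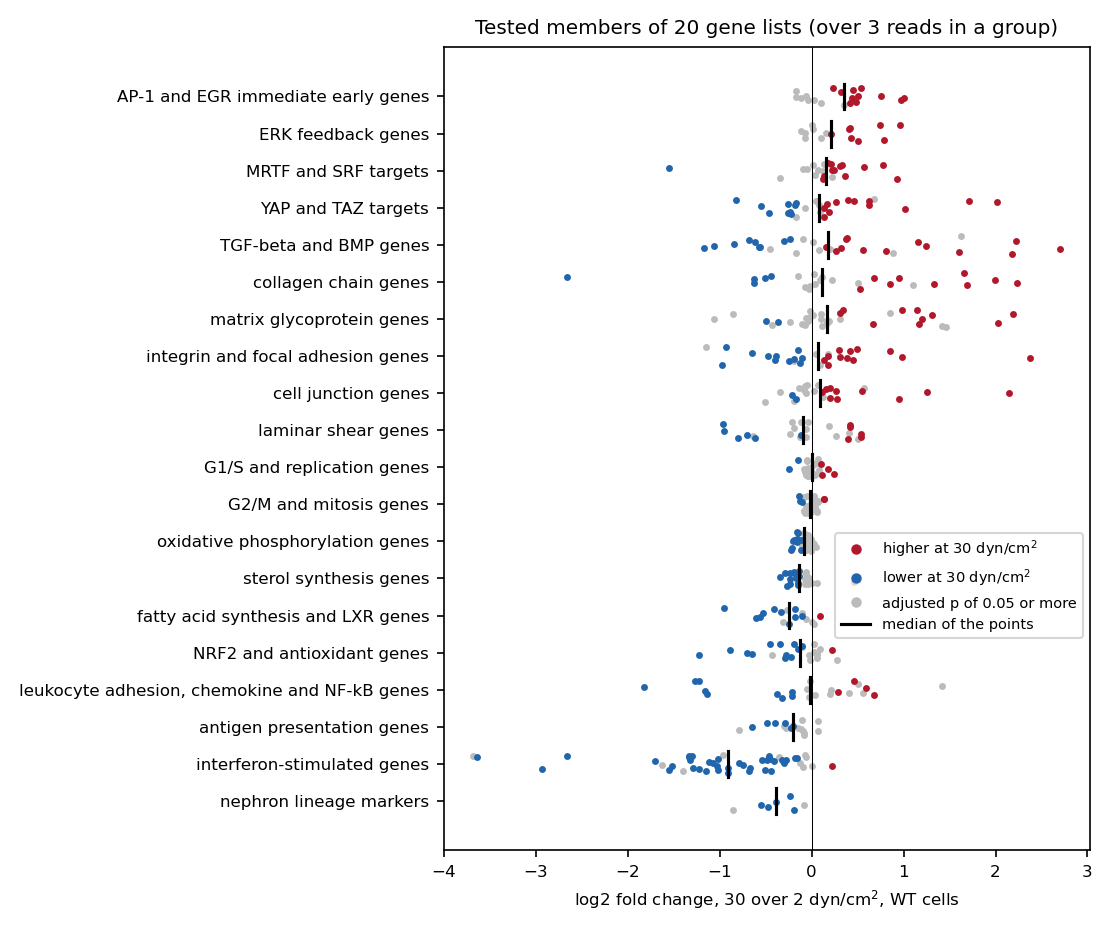
Change (log2, 30 over 2 dyn/cm²) of the tested members of 20 gene lists in WT cells, 1 point a gene with over 3 reads in a group, red where higher at 30 dyn/cm², blue where lower and grey where the change did not pass, the bar marking the median of the points. Immediate early genes and ERK feedback genes lie to the right, interferon-stimulated genes to the left, and cell cycle genes close to 0.

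Lipid genes were lower at high shear, by small amounts. Of 24 sterol synthesis genes 13 were lower and 1 higher, together 58.3% beside 33.1% of all genes, median -0.14. Hmgcs1, which makes the first committed intermediate, had 236, 251 and 241 CPM at 30 dyn/cm², against 302, 287 and 288 CPM at 2 dyn/cm² (-0.27 ± 0.04, edgeR adjusted p = 9.6e-08). Mvk, mevalonate kinase, fell by 0.34 on the log2 scale (edgeR adjusted p = 2.36e-06). The call of Idi1, an isomerase and the member that rose (0.46 ± 0.16, edgeR adjusted p = 0.0208), was lost without replicate 1 or 2 at 2 dyn/cm² or replicate 1 or 3 at 30 dyn/cm², with changes of 0.41 to 0.44 for Idi1 then. Of 17 fatty acid and LXR genes 10 were lower and 1 higher, together 64.7%, median -0.24 (10 and 0 without replicate 1 at 2 dyn/cm²). The desaturase Scd1 had 309, 297 and 310.1 CPM at 30 dyn/cm², against 457, 459 and 479.9 CPM at 2 dyn/cm², and Scd2, its close relative, 2790.3, 2759 and 2804 CPM at 30 dyn/cm², against 3987, 3979 and 4069 CPM at 2 dyn/cm². Both fell without overlap (-0.61 ± 0.03 and -0.53 ± 0.03, edgeR adjusted p = 1.1e-18 and 4.33e-18). Srebf1, the transcription factor over fatty acid synthesis, and Abcg1, a sterol exporter induced by LXR, fell by 0.41 and 0.96 (edgeR adjusted p = 3.52e-13 and 1.46e-05). Fasn itself did not pass (-0.06 ± 0.05, edgeR adjusted p = 0.407), but did without replicate 1 at 2 dyn/cm² (-0.14, edgeR adjusted p = 0.000679).

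The NRF2 antioxidant program is known to rise with laminar flow in endothelium. Of its 24 genes tested here 12 fell and 1 rose, median -0.13 (11 and 3 without replicate 1 at 2 dyn/cm²). Together 54.2% passed, beside 33.1% of all genes. Gstm1, a glutathione transferase with close relatives, had 41.8, 39.7 and 41.9 CPM at 30 dyn/cm², against 100.5, 95.3 and 91.97 CPM at 2 dyn/cm² (-1.22 ± 0.05, edgeR adjusted p = 4.74e-24). Osgin1, a gene induced by oxidant stress, had 35.8, 34.96 and 36.003 CPM at 30 dyn/cm², against 68.3, 63.2 and 66.1 CPM at 2 dyn/cm² (-0.89 ± 0.06, edgeR adjusted p = 2.76e-16), and the peroxiredoxin repair enzyme Srxn1 83.4, 75.96 and 83.6 CPM at 30 dyn/cm², against 126, 132 and 123 CPM at 2 dyn/cm² (-0.65 ± 0.05, edgeR adjusted p = 6.64e-15). All 3 fell without overlap. Hmox1, heme oxygenase, and Txnrd1, thioredoxin reductase, did not pass (0.09 ± 0.05 and 0.02 ± 0.03, edgeR adjusted p = 0.143 and 0.643).

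Of 15 PPAR targets 2 were higher and 5 lower, together 46.7% beside 33.1% of all genes. Angptl4, an inhibitor of lipoprotein lipase, had 94.3, 104 and 95.7 CPM at 30 dyn/cm², against 65.2, 58.6 and 57.8 CPM at 2 dyn/cm² (0.69 ± 0.05, edgeR adjusted p = 1.64e-14), and the droplet coat Plin2 194, 209 and 202 CPM at 30 dyn/cm², against 145, 138 and 133 CPM at 2 dyn/cm² (0.54 ± 0.04, edgeR adjusted p = 9.34e-15). The oxidation enzymes Acadm, Acaa2 and Cpt1a fell by 0.50, 0.44 and 0.24 on the log2 scale (edgeR adjusted p = 1.11e-10, 2.33e-09 and 2.12e-06). Of 7 aryl hydrocarbon receptor genes 2 rose and 1 fell, together 42.9%. The member that fell was Aldh3a1, an aldehyde dehydrogenase with 8 reads at 30 and 23 at 2 dyn/cm², and its call was lost without replicate 1 at 2 dyn/cm² (-1.14, edgeR adjusted p = 0.17). Tiparp, a feedback inhibitor of the receptor, had 166, 169.7 and 167 CPM at 30 dyn/cm², against 119, 122 and 119.97 CPM at 2 dyn/cm² (0.48 ± 0.04, edgeR adjusted p = 3.64e-12).

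In the lysosome list 11 of 24 were lower and 2 higher, together 54.2% beside 33.1% of all genes. The membrane protein Lamp2 had 334, 346 and 341 CPM at 30 dyn/cm², against 424, 419 and 415 CPM at 2 dyn/cm² (-0.30 ± 0.04, edgeR adjusted p = 2.09e-08). Ctsw, a cathepsin first found in killer lymphocytes, had the largest rise of the genes ranked by size of change, with 12.2, 11.98 and 12.1 CPM at 30 dyn/cm², against 0.869, 0.481 and 0.434 CPM at 2 dyn/cm², 19.9-fold higher by the fitted change (4.32 ± 0.18, edgeR adjusted p = 1.86e-22). It overlaps 1 gene on the other strand, and whether counting used the strand is not given in the sources used here.

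Oxygen and energy genes split. Of 21 hypoxia genes 3 rose and 7 fell, together 47.6% beside 33.1% of all genes (2 and 7 without replicate 1 at 2 dyn/cm²). Of 22 glycolysis genes 3 rose and 7 fell, together 45.5%. Without replicate 1 at 2 dyn/cm² 5 glycolysis genes rose and 4 fell, and 4 fell also without replicate 2 or 3 at 30 dyn/cm². Bhlhe40, a circadian and hypoxia repressor, stood out among them with 117, 123 and 117 CPM at 30 dyn/cm², against 54.9, 46.8 and 49.98 CPM at 2 dyn/cm² (1.23 ± 0.04, edgeR adjusted p = 1.47e-24). Pdk1, which keeps pyruvate from the mitochondrion, had 20.9, 21.2 and 18.7 CPM at 30 dyn/cm², against 30.4, 32.6 and 31.6 CPM at 2 dyn/cm² (-0.64 ± 0.07, edgeR adjusted p = 1.92e-10). Vegfa, an angiogenic hypoxia target, had 64.001, 63.9 and 65.1 CPM at 30 dyn/cm², against 63.5, 64.5 and 63.8 CPM at 2 dyn/cm², and its groups overlapped (0.01 ± 0.04, edgeR adjusted p = 0.91). Of 30 oxidative phosphorylation genes 10 fell and 0 rose, 33.3% beside 33.1% of all genes, but over these genes replicate 1 at 2 dyn/cm² was a median of 0.16 on the log2 scale above the mean of the other 2. Without it the counts were 7 lower and 1 higher.

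Of 24 stress genes of the unfolded protein and ATF4 responses 8 rose and 5 fell, together 54.2% beside 33.1% of all genes. Only 3 fell without replicate 1 at 2 dyn/cm² or any 1 library at 30 dyn/cm². The hormone gene Fgf21, which ATF4 induces, had 23.3, 25.7 and 27.1 CPM at 30 dyn/cm², against 8.75, 6.55 and 8.25 CPM at 2 dyn/cm² (1.69 ± 0.10, edgeR adjusted p = 8.52e-18). Of 20 targets of p53 7 rose and 3 fell, together 50%. Without replicate 1 at 30 dyn/cm² 5 of these targets fell. The cell cycle inhibitor Cdkn1a had 215, 194 and 196 CPM at 30 dyn/cm², against 286, 266 and 265 CPM at 2 dyn/cm² (-0.44 ± 0.04, edgeR adjusted p = 5.2e-11).

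Few cell cycle genes passed. Of 26 replication genes 4 were higher and 2 lower, and of 25 mitosis genes 2 and 3, shares under the 33.1% of all genes that passed. Their changes lay between -0.24 and 0.24 on the log2 scale. Mki67, present in every phase but rest, had 642, 656 and 637 CPM at 30 dyn/cm², against 602, 715 and 714 CPM at 2 dyn/cm² and overlapped (-0.07 ± 0.05, edgeR adjusted p = 0.345). Without replicate 1 at 2 dyn/cm² Mki67 passed as lower (-0.15, edgeR adjusted p = 0.000712), and the calls of Cdk1, Ccnb2, Cenpe and Cenpf were lost.

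Of 36 growth factor genes 8 were higher and 4 lower, together 33.3%, near the 33.1% of all genes. Of the 36, 6 had 3 or fewer reads in both groups. Pdgfb, a ligand that recruits mural cells to vessels, had 175, 174 and 177 CPM at 30 dyn/cm², against 80.1, 78.3 and 78.6 CPM at 2 dyn/cm², without overlap (1.15 ± 0.05, edgeR adjusted p = 4.18e-23). Its receptor Pdgfrb, a marker of pericytes, had 3.96, 4.22 and 4.69 CPM at 30 dyn/cm², against 0.869, 0.901 and 0.868 CPM at 2 dyn/cm² (2.28 ± 0.16, edgeR adjusted p = 1.73e-15). Downstream of Pdgfrb on the same strand lies Csf1r, the receptor that keeps macrophages alive, and it moved the other way. Csf1r had 10.1, 8.38 and 8.38 CPM at 30 dyn/cm², against 39.9, 43.97 and 39.4 CPM at 2 dyn/cm², 4.59-fold lower by the fitted change (-2.20 ± 0.08, edgeR adjusted p = 3.15e-24). Csf1r overlaps 2 other annotated genes.

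Of 22 Wnt genes 9 rose and 2 fell, together 50% beside 33.1% of all genes, and 6 had 3 or fewer reads in both groups. Lef1, a factor through which beta-catenin acts, had 40.2, 39.5 and 38.5 CPM at 30 dyn/cm², against 21.7, 21.5 and 18.3 CPM at 2 dyn/cm² (0.94 ± 0.07, edgeR adjusted p = 1.83e-15). The receptor Fzd6 had 390.5, 392 and 391 CPM at 30 dyn/cm², against 235, 239.99 and 236 CPM at 2 dyn/cm² (0.72 ± 0.03, edgeR adjusted p = 9.59e-22), and the ligand Wnt7b 106, 104 and 94.7 CPM at 30 dyn/cm², against 65.4, 62.2 and 66.6 CPM at 2 dyn/cm² (0.65 ± 0.05, edgeR adjusted p = 4.47e-15). Axin2, a direct target of the pathway, rose by 0.42 on the log2 scale (edgeR adjusted p = 6.21e-05).

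Of 30 guidance genes 6 rose and 10 fell, or 6 fell without replicate 2 at 2 dyn/cm². Together 53.3% passed, beside 33.1% of all genes, and 4 had 3 or fewer reads in both groups. Unc5b, a netrin receptor of sprouting vessels, had 116, 122 and 125 CPM at 30 dyn/cm², against 57.05, 58.99 and 61.9 CPM at 2 dyn/cm² (1.03 ± 0.06, edgeR adjusted p = 2.93e-15), and Ntn4, a netrin of basement membranes, 9.17, 8.88 and 8.66 CPM at 30 dyn/cm², against 16.2, 16.5 and 18.4 CPM at 2 dyn/cm² (-0.94 ± 0.09, edgeR adjusted p = 7.56e-12). Notch genes gave 4 higher and 3 lower of 14, together 50% (5 and 4 without replicate 1 at 2 dyn/cm²). The ligand Jag2 rose by 0.35 and Jag1 fell by 0.23 (edgeR adjusted p = 5.15e-06 and 0.000538).

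Of 30 cilium genes 4 fell and 2 rose (5 and 1 without replicate 1 at 2 dyn/cm²), together a share under the 33.1% of all genes. Pkd1, which encodes polycystin-1 of the cilium, had 210.3, 209.5 and 207 CPM at 30 dyn/cm², against 116, 151 and 161 CPM at 2 dyn/cm² (0.55 ± 0.08 with replicate 1 and 0.42 without, edgeR adjusted p = 7.59e-05 and 7e-15).

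Genes that changed far but stand in none of these lists included Ano1, a calcium-gated chloride channel, with 38.5, 36.6 and 34.1 CPM at 30 dyn/cm², against 6.19, 6.85 and 6.89 CPM at 2 dyn/cm² (2.45 ± 0.08, edgeR adjusted p = 1.36e-25). The interleukin 33 receptor Il1rl1 had 7.73, 10.4 and 10.03 CPM at 30 dyn/cm², against 1.85, 2.103 and 2.39 CPM at 2 dyn/cm² (2.15 ± 0.14, edgeR adjusted p = 3.85e-16), and the DNA-binding protein Arid3a 17.6, 18.9 and 17.3 CPM at 30 dyn/cm², against 3.75, 3.96 and 4.07 CPM at 2 dyn/cm² (2.19 ± 0.09, edgeR adjusted p = 3.82e-22). These were higher in every library at 30 dyn/cm². Sult1c2, a sulfotransferase, had 2.46, 1.44 and 2.48 CPM at 30 dyn/cm², against 11.95, 11.1 and 12.8 CPM at 2 dyn/cm² (-2.49 ± 0.15, edgeR adjusted p = 3.56e-16). The membrane protease Tmprss6 had 1.92, 1.94 and 1.82 CPM at 30 dyn/cm², against 8.91, 9.01 and 7.92 CPM at 2 dyn/cm² (-2.18 ± 0.15, edgeR adjusted p = 9.66e-16), and the small GTPase Rasl11b 26.3, 20.7 and 23.05 CPM at 30 dyn/cm², against 80.96, 76.1 and 71.7 CPM at 2 dyn/cm² (-1.71 ± 0.06, edgeR adjusted p = 2.78e-23). These were lower in every library at 30 dyn/cm². Genes ranked by size of change were taken only where the groups did not overlap, so the lack of overlap here was fixed by that rule.

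Set beside static cells, the levels of the groups did not always line up. The sources used here give no time or serum starvation for static cells. Flow, time and starvation therefore cannot be told apart between static cells and those under flow. Ccn2, Npr3 and Apln lay in order from static cells through 2 to 30 dyn/cm². Ccn2 held 50.6 ± 6.296 CPM in static cells, 96.7 ± 1.08 at 2 dyn/cm² and 316 ± 6.75 at 30 dyn/cm² (SD, n = 3 each here). Npr3 held 312 ± 21.4 CPM in static cells, 135 ± 7.13 at 2 dyn/cm² and 33.03 ± 0.3498 at 30 dyn/cm², and Apln 158 ± 14.7 CPM in static cells, 62.8 ± 1.74 at 2 dyn/cm² and 19.4 ± 0.813 at 30 dyn/cm². The metabolic genes Pdk1 and Angptl4 differed more between static cells and 2 dyn/cm² than between the 2 shears. Pdk1 held 338 ± 10.8 CPM in static cells, 31.5 ± 1.07 at 2 dyn/cm² and 20.2 ± 1.36 at 30 dyn/cm². Angptl4 held 1.61 ± 0.212 CPM in static cells, 60.5 ± 4.07 at 2 dyn/cm² and 97.9 ± 5.08 at 30 dyn/cm². Others had their extreme at 2 dyn/cm². Col4a3 held 7.75 ± 0.398 CPM in static cells, 1.95 ± 0.0862 at 2 dyn/cm² and 9.15 ± 0.441 at 30 dyn/cm², and Col4a4 15.6 ± 1.36 CPM in static cells, 4.27 ± 0.5301 at 2 dyn/cm² and 17.01 ± 0.699 at 30 dyn/cm². Bhlhe40 held 203 ± 2.16 CPM in static cells, 50.6 ± 4.099 at 2 dyn/cm² and 119 ± 2.97 at 30 dyn/cm². For the chains of collagen IV that rose, the levels at 30 dyn/cm² thus lay near those of static cells, and the low point was at 2 dyn/cm². Agt and Cldn2 showed the reverse, with 3.68 ± 0.558 CPM in static cells, 11.2 ± 0.6296 at 2 dyn/cm² and 3.35 ± 0.6798 at 30 dyn/cm² for Agt and 9.09 ± 1.15 CPM in static cells, 27.8 ± 2.23 at 2 dyn/cm² and 7.26 ± 0.911 at 30 dyn/cm² for Cldn2. Irf7 and Isg15 also peaked at 2 dyn/cm², with 12.6 ± 3.34 CPM in static cells, 18.7 ± 2.097 at 2 dyn/cm² and 9.1995 ± 0.565 at 30 dyn/cm² for Irf7 and 15.4 ± 3.71 CPM in static cells, 25.4 ± 2.39 at 2 dyn/cm² and 11.7 ± 1.03 at 30 dyn/cm² for Isg15. These levels are given side by side without a test.

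The same step was measured in orpk cells. There 8306 of 13058 genes passed between 30 and 2 dyn/cm² (63.6%), and the difference between the orpk and the WT change passed for 6073 (46.5%). Of the 4316 WT calls 2568 had such a difference, and of the 314 over 1 on the log2 scale 146 did. In 871 genes the change passed in both genotypes in opposite directions.

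Cell cycle and sterol genes moved in orpk cells, and few of them passed in WT cells or did so by small amounts. Mitosis genes were lower in 25 of 25 in orpk cells, against 3 in WT cells, and the difference passed for 25. Replication genes were lower in 25 of 26 in orpk cells, against 2 in WT cells, and the difference passed for 24. Sterol synthesis genes were higher in 24 of 24 in orpk cells (median 0.90), against 1 in WT cells (median -0.14), with a difference in 23. For NRF2 genes 16 of 24 were higher and 7 lower in orpk cells, with a difference in 19. Interferon-stimulated genes were lower in 38 of 48 in orpk cells (median -1.10), against 36 in WT cells, and the difference passed for 17, or 35.4%, below the 46.5% of all genes.

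The shear factors that did not pass in WT cells did in orpk cells. Klf2 had 15.3, 16.005 and 16.8 CPM at 30 and 6.15, 9.62 and 7.24 CPM at 2 dyn/cm² in orpk cells, a rise of 1.05 ± 0.12, and the difference from WT was 1.18 ± 0.19 (edgeR adjusted p = 2.73e-06). Klf4 rose by 1.51 ± 0.05 in orpk cells, with a difference of 1.32 ± 0.10 (edgeR adjusted p = 5.02e-13). Ccn2 had 449.8, 433 and 433 CPM at 30 and 53.04, 47.5 and 60.9 CPM at 2 dyn/cm² in orpk cells, and its rise was larger by 1.32 ± 0.12 (edgeR adjusted p = 1.47e-07). Of the collagen IV chains that fell in WT cells, Col4a1 rose by 1.46 ± 0.03 and Col4a2 by 1.47 ± 0.04 in orpk cells, differences of 2.09 ± 0.16 and 2.10 ± 0.12 (edgeR adjusted p = 1.34e-14 and 6.39e-18). Csf1r had 1.35, 1.57 and 1.09 CPM at 30 and 0.8598, 1.26 and 0.9902 CPM at 2 dyn/cm² in orpk cells, so it was low in both, and the difference in change was 2.56 ± 0.32 (edgeR adjusted p = 1.2e-08). Tnnt2 and Gja1 rose in orpk cells by 2.67 ± 0.11 and 1.13 ± 0.07, and the differences from WT did not pass (-0.25 ± 0.18 and -0.13 ± 0.13, edgeR adjusted p = 0.254 and 0.428). The cells of each genotype came from different mice, so genotype and isolate cannot be told apart.

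**Figure D5:**
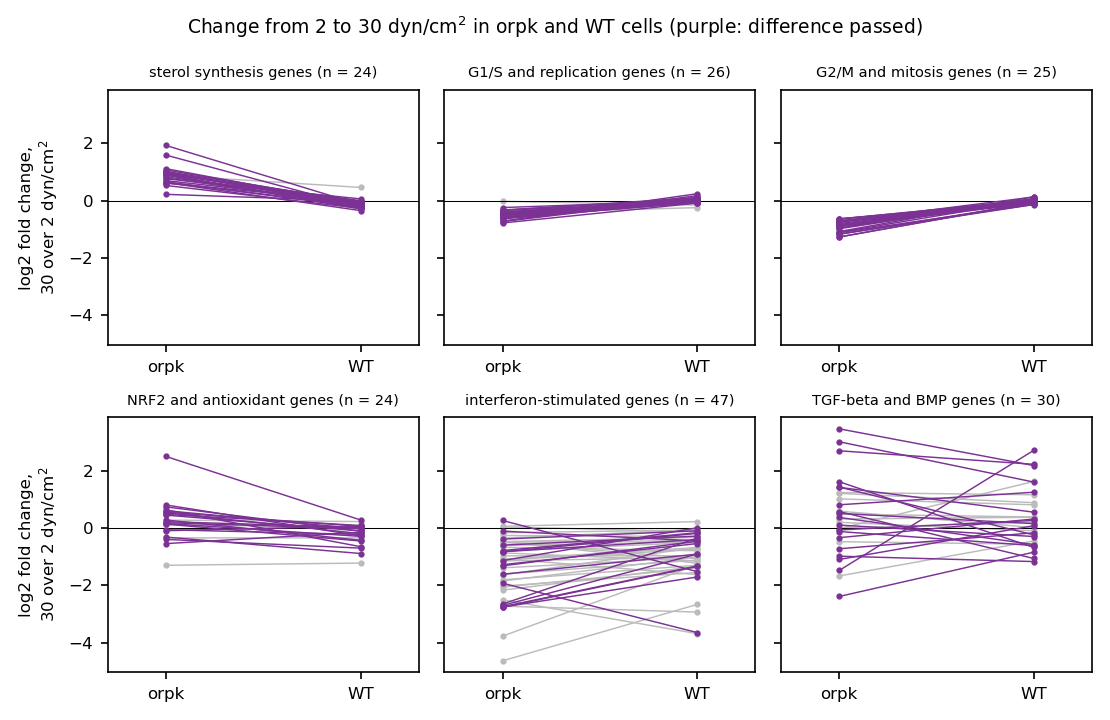
Change (log2, 30 over 2 dyn/cm²) of the tested members of 6 gene lists with over 3 reads in a group, in orpk cells (left of each panel) and WT cells (right), joined by a line that is purple where the difference passed. Mitosis genes lie below 0 in orpk cells and near 0 in WT cells, sterol synthesis genes lie above 0 in orpk cells and at or below 0 in most of WT, and most interferon-stimulated genes lie below 0 in both.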

How the data were processed

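Per the submitters' processing notes, base calls were made with CASAVA 1.8.2, reads aligned to GRCm38 with STAR 2.4 and counted with featureCounts 1.4.6. The deposited table holds raw counts per gene for each library, and per the labels' protocols the libraries are stranded poly(A) libraries read as single 50-base reads. The annotation release, the strand setting and the treatment of reads that map to several places are not given in the sources used here, so counts of close copies and overlapping genes are uncertain. Of 249 genes the naming rule gave, 107 overlap another annotated gene and 86 a gene on the other strand. Genes were matched to GENCODE M21, 21583 of 21647 by ID, for symbols, lengths and positions.

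Counts were fitted with edgeR 4.0.16 (R 4.3.3), with TMM factors, filterByExpr, robust quasi-likelihood dispersions and 1 mean for each of the 6 groups over 18 libraries. The filter was applied over all 18 libraries, so some tested genes had few or no reads in WT cells under flow. Residual degrees of freedom were 12 and the common biological variation 3.28%. The same fit gave 30 over 2 dyn/cm² in WT cells, in orpk cells, and the orpk minus WT difference, each adjusted by Benjamini-Hochberg. An SE is the change divided by the square root of its F. Totals were 13626480 to 17387553 counts over all libraries. A p here speaks only to the variation among deposited libraries, which may be purely technical. DESeq2 1.42.0, other scalings, no filter, the compared groups alone, a replicate block and each library left out were the alternatives. The procedure was tested on simulated counts.

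The members and the 42 gene lists were chosen with earlier results of these data known. Named by rule were 9 fixed genes, the 15 passing genes with the highest and the 15 with the lowest change at 5 CPM or more, up to 6 passing members of each list with the largest changes, and the 6 highest and 6 lowest genotype differences at 5 CPM or more in WT cells and over 3 reads in each group under flow. Genes ranked over the whole table by change or difference had no Gm, Rik or pseudogene symbol. The 15 highest and 15 lowest were also taken only where the 3 and 3 libraries did not overlap. For them a lack of overlap was thus fixed by the rule. Members named beside these, such as Isg15, Irf7, Irgm1, Klf10, Col4a5, Smad3 and Fasn, were chosen after their values were seen. Some genes that met the rule are not reported here.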

Additional observations from a re-analysis of the deposited data

Results flagged for a closer look

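Each gene here was singled out because its change between 30 and 2 dyn/cm² differed between orpk and WT cells by the test of the difference itself (edgeR, adjusted p under 0.05), among the genes fixed by name, the largest WT changes and the largest differences. Values are the orpk change minus the WT change on the log2 scale, and what sets the genotypes apart was not tested.

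The difference was 1.18 for Klf2, 1.32 for Klf4 and 0.89 for Edn1, which rose in orpk cells and did not pass in WT cells. It was 1.32 for Ccn2 and 0.47 for Pmepa1, a larger rise in orpk cells. It was -0.61 for Fstl3, -0.63 for Col4a4, -1.49 for Col7a1 and -0.94 for Col12a1, all of which rose in WT cells. Of other genes that rose in WT cells, it was -0.31 for Ano1 and -1.59 for Arid3a.

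Among genes that fell in WT cells it was 1.72 for Ifit3 and -1.05 for Ifit1, so the fall of Ifit3 was smaller and that of Ifit1 larger in orpk cells. It was 0.33 for Npr3, 0.72 for Rasl11b, 1.25 for Bbof1, 1.87 for Cdkl1 and 2.56 for Csf1r, of which Csf1r was under 2 CPM in all orpk libraries under flow.

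Beside Csf1r, the largest positive differences among genes that averaged 5 CPM or more over the 6 WT libraries and had over 3 reads in each of the 4 groups under flow were 3.70 for Cbs, an enzyme that makes cystathionine, 2.93 for Anxa8, 2.62 for Pdzk1ip1, 2.45 for Ptgs2, the inducible prostaglandin synthase, and 2.41 for Palm3. The largest negative ones among these were -3.46 for Txnip, an inhibitor of thioredoxin and glucose uptake, -3.05 for Rbm20, -2.88 for Cdsn, -2.81 for Epha7, -2.71 for Megf6 and -2.42 for Atp9a. The level rule was set on WT libraries alone, and Megf6 was near the floor in orpk cells. It had 4 reads there at 30 and 15 at 2 dyn/cm², against means of 253 and 116 CPM in WT cells.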

How the results depend on the processing

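The number of genes that passed in WT cells, 4316, was 3739 with DESeq2, 4318 with RLE factors, 4340 with library totals, 4339 without the filter, 3866 with the compared groups alone, 5171 with those and replicate 1 at 2 dyn/cm² left out, and 3538 to 4339 with each library left out in turn. Every one of these was within 1.5 times of 4316, as were the counts by direction and the counts for orpk cells and the genotype difference. Across the 6 fits that left out 1 library, 2835 of the 4316 calls (65.7%) passed each time, and of 314 over 1 on the log2 scale 263 did. Over 293 named genes and 3795 comparisons with an alternative, 3664 kept the side of the threshold, 107 lost the call (34 genes) and 24 gained it (10 genes). The direction reversed in 0 comparisons where either fit passed. A change of sign where neither fit passed was not counted. Without replicate 1 at 2 dyn/cm² 19 named genes lost it and 6 gained it. Among list counts, matrix glycoproteins lower were 5 with library totals, against 2. Mitosis genes lower were 6 with library totals, against 3. Unfolded protein genes lower were 3 with DESeq2, against 5. With the compared groups alone and replicate 1 at 2 dyn/cm² left out, matrix glycoproteins lower were 8, NRF2 genes higher 5, replication genes higher 8 and mitosis genes lower 6.

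A replicate block left 4302 genes past the threshold, and of the named genes Col1a2 lost its call under it (0.53, edgeR adjusted p = 0.0535) and 1 gained one. Samples that share a number did not deviate together, with correlations of 0.01, 0.06 and -0.06 over 9995 genes, and 3 of 6 libraries correlated best with the one of their own number. Depth limits genes such as Nos3, Vcam1 and Acta2, at a few CPM or less.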
